A study of Homo sapiens with 20 samples.

Results

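RNA of the enzymes that build serine, of those that pass its carbon into the folate pool, and of a pair of serine carriers was followed across proteasome inhibitor-resistant cell lines. The 10 genes were chosen by name for their place in this pathway, out of 18305 genes in the table, and all 10 were above the filter on low values. With their NCBI gene identifiers in brackets they are PHGDH (26227), PSAT1 (29968), PSPH (5723), SHMT1 (6470), SHMT2 (6472), MTHFD2 (10797), MTHFD1L (25902), MTHFD1 (4522), SLC1A4 (6509), SLC1A5 (6510). RNA-seq was done on 20 libraries of human cell lines, in 10 groups of 2 biological replicates. AMO1, L363 and RPMI-8226 are myeloma lines, grown from malignant plasma cells, and ARH-77 is a B-lymphoblastoid line. Wild-type (WT) cells of each line stood beside bortezomib-resistant (BtzR) cells of the same line, and carfilzomib-resistant (CfzR) libraries were labelled for AMO1 and L363. Resistant cells were evolved in vitro and grown in 90 nM of bortezomib or carfilzomib, both inhibitors of the proteasome, so resistance and the presence of drug cannot be told apart in these comparisons. The labels name 1 resistant line for each group, so the replicates measure the spread within that line, and the spread between independent selections is not known.

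Cells make serine from the glycolytic intermediate 3-phosphoglycerate by the successive action of PHGDH, PSAT1 and PSPH, or import it. Serine hydroxymethyltransferases, SHMT1 in the cytosol and SHMT2 in mitochondria, split serine into glycine and a one-carbon unit carried by folate. Mitochondrial MTHFD2 and MTHFD1L turn that unit into formate, and cytosolic MTHFD1 takes formate back into the folate pool for purine and thymidylate synthesis. PHGDH, PSAT1, SHMT2 and MTHFD2 are known targets of ATF4, the transcription factor of the amino acid response.

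Levels are the deposited FPKM, fragments scaled to transcript length and to the mapped fragments of the library, and depth per library is unknown. Differences are on the scale of log2(FPKM + 1) with the standard error (SE) of a limma fit to all 20 libraries. A gene passed where the Benjamini-Hochberg adjusted p over 13089 tested genes was under 0.05. In bulk RNA fewer cells of a type and less RNA per cell cannot be told apart. Replicates of a group correlated at r = 0.986 to 0.998 over tested genes. The 2 libraries labelled AMO1 CfzR correlated at 0.986 to 0.992 with the L363 libraries and at 0.878 to 0.883 with the other AMO1 libraries, so they went against their label, and they are called the libraries labelled AMO1 CfzR below. Plasma cell markers were present at 1 FPKM or more for all 6 genes of the list in every group but ARH-77 BtzR, with 5 of 6 (PRDM1 was at 0.41 and 0.66 FPKM). B-cell markers were present for 6 of 6 in both ARH-77 groups and for 0 or 1 of 6 in the others.

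Across the 4 lines selected in bortezomib, MTHFD1 was the member that rose in the most lines. Fitted on the log2(FPKM + 1) scale, its RNA was 1.81-fold the WT level in AMO1, 1.39-fold in RPMI-8226 and 1.97-fold in ARH-77, and 1.06-fold in L363, where it did not pass. The cytosolic serine hydroxymethyltransferase SHMT1 fell in AMO1 to 0.53 of WT, and the carrier SLC1A4 fell in RPMI-8226 to 0.499 of WT. PSPH, which completes serine synthesis, fell in AMO1 and rose in RPMI-8226. These PSPH calls and the MTHFD1 call in RPMI-8226 were each lost on leaving out either of 2 single libraries, whereas the other calls named here held. PHGDH, the enzyme that commits carbon to serine, passed in none of these comparisons, and no member passed in L363.

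**Figure D1:**
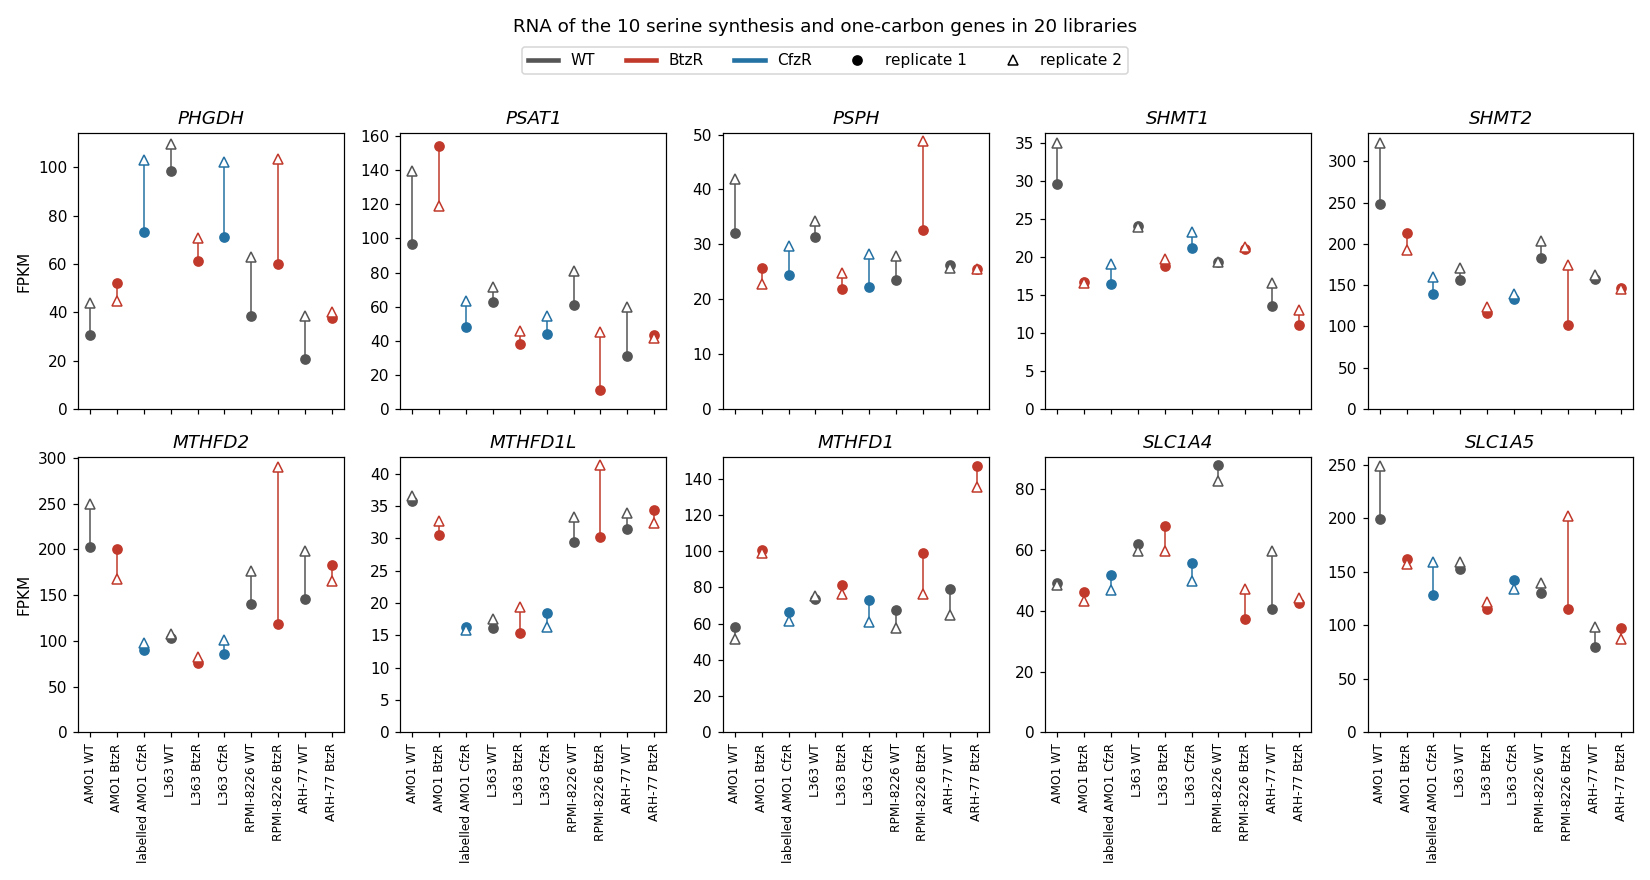
FPKM of each of the 10 genes in the 20 libraries, with 1 panel per gene and the 10 groups along the x axis (grey WT, red BtzR, blue CfzR; filled circle replicate 1, open triangle replicate 2; the line joins the 2 replicates). MTHFD1 is highest in both ARH-77 BtzR libraries, and the 2 RPMI-8226 BtzR libraries lie far apart for PSAT1 and MTHFD2.

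PHGDH oxidises 3-phosphoglycerate in the committed step of serine synthesis. In AMO1 its level was 30.6 and 43.9 FPKM in WT and 52.2 and 44.7 FPKM in BtzR cells. RPMI-8226 held 38.5 and 63.0 FPKM in WT and 60 and 103 FPKM in BtzR, and ARH-77 held 20.8 and 38.3 FPKM in WT and 37.6 and 40.2 FPKM in BtzR. The BtzR means were thus the higher in these 3 lines, but the libraries overlapped in RPMI-8226 and ARH-77. L363 went the other way, with 98.3 and 109.5 FPKM in WT, 61.1 and 70.7 FPKM in BtzR and 71.1 and 102 FPKM in CfzR. The log2 difference of BtzR from WT was 0.39 ± 0.31 in AMO1 (adjusted p = 0.334), 0.67 ± 0.31 in RPMI-8226 (0.0868), 0.45 ± 0.31 in ARH-77 (0.41) and -0.65 ± 0.31 in L363 (0.229). None passed, and the 95% interval in RPMI-8226 ran from -0.0043 to 1.34. Without RPMI-8226 WT replicate 2 that difference was 1.02 (adjusted p = 0.0383), and without RPMI-8226 BtzR replicate 1 it was 1.05 (adjusted p = 0.0255), both of which passed.

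Over the 10 groups PHGDH ran from a mean of 29.6 FPKM in ARH-77 WT to 103.9 FPKM in L363 WT, and 8 of the 9 neighbouring groups in that order overlapped. The L363 groups and the libraries labelled AMO1 CfzR stood in 4 of the 5 highest places. The tested genes whose group means followed PHGDH most closely were CA8 (Pearson r = 0.954), ERGIC1 (0.953) and CDKN2B (0.940) over 10 group means of log2(FPKM + 1). CA8 and CDKN2B came near the floor, with lowest group means of 0.063 and 0.27, and the highest of CDKN2B was only 1.75. These 10 points are groups of only 4 lines, and the coefficients are a description.

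PSAT1, the aminotransferase of the next step, had its highest levels in AMO1, at 97.0 and 139 FPKM in WT and 154 and 119 FPKM in BtzR cells. RPMI-8226 WT held 60.9 and 80.8 FPKM and RPMI-8226 BtzR 11.3 and 45.1 FPKM. In RPMI-8226 both BtzR libraries were under both WT libraries, but the first was only a fraction of the second. The log2 difference was -1.58 ± 0.44 (adjusted p = 0.00716), and it lost its call without RPMI-8226 BtzR replicate 1, at -0.62 (adjusted p = 0.134), or without RPMI-8226 WT replicate 2, at -1.38 (adjusted p = 0.0622). Fitted on the 4 RPMI-8226 libraries alone, its adjusted p was 0.152. L363 held 62.9 and 71.3 FPKM in WT, 37.9 and 45.7 FPKM in BtzR and 43.8 and 54.6 FPKM in CfzR. ARH-77 held 31.2 and 59.7 FPKM in WT and 43.4 and 41.7 FPKM in BtzR. The resistant L363 libraries were all below the WT ones, whereas the ARH-77 BtzR libraries lay between the WT libraries. Log2 differences were 0.22 ± 0.44 in AMO1, -0.02 ± 0.44 in ARH-77, and in L363 -0.67 ± 0.44 for BtzR and -0.45 ± 0.44 for CfzR, and none of these passed (adjusted p from 0.411 to 1). The AMO1 difference changed sign, to -0.04, without AMO1 WT replicate 1. The genes most like PSAT1 over the 10 group means were TGFBR2 (r = 0.978), CARS (0.941) and CES2 (0.939), again as a description over groups of 4 lines. The lowest group mean of TGFBR2 was 0.

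PSPH, the phosphatase that releases serine, moved in opposite directions in the 2 lines where it passed. AMO1 WT held 32.1 and 41.9 FPKM and AMO1 BtzR 25.6 and 22.8 FPKM. RPMI-8226 WT held 23.6 and 28.0 FPKM and RPMI-8226 BtzR 32.6 and 48.9 FPKM. The 2 groups did not overlap in either line, and the 2 RPMI-8226 BtzR libraries included the highest PSPH level of the 20. The log2 difference was -0.58 ± 0.17 in AMO1 (adjusted p = 0.0119) and 0.62 ± 0.17 in RPMI-8226 (0.00772), and the test of a difference between the 4 lines passed (adjusted p = 0.0021). The AMO1 call was lost without AMO1 WT replicate 2, at -0.40 (adjusted p = 0.138), and without AMO1 BtzR replicate 2, at -0.50 (adjusted p = 0.0846). The RPMI-8226 call was lost without RPMI-8226 WT replicate 1, at 0.50 (adjusted p = 0.0788), and without RPMI-8226 BtzR replicate 2, at 0.33 (adjusted p = 0.131). Both calls thus rested on single libraries. Neither passed in a fit of its own 4 libraries, with adjusted p = 0.0533 in AMO1 and 0.108 in RPMI-8226. In L363 the level was 31.4 and 34.3 FPKM in WT, 21.8 and 24.7 FPKM in BtzR and 22.3 and 28.3 FPKM in CfzR. ARH-77 held 26.2 and 25.7 FPKM in WT and 25.5 and 25.6 FPKM in BtzR, nearly the same level in all 4 libraries. Neither L363 difference (-0.48 ± 0.17 and -0.37 ± 0.17) nor the ARH-77 difference (-0.02 ± 0.17) passed.

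SHMT1 had its highest level in AMO1 WT, at 29.7 and 35.1 FPKM, and AMO1 BtzR held 16.7 and 16.6 FPKM. The AMO1 groups were far apart relative to their replicates, and the log2 difference of -0.91 ± 0.11 (95% interval -1.15 to -0.68, adjusted p = 7.64e-06) held without each of the 4 AMO1 libraries, at -1.03 to -0.80. L363 held 24.1 and 23.9 FPKM in WT, 18.8 and 19.8 FPKM in BtzR and 21.2 and 23.2 FPKM in CfzR. ARH-77 held 13.5 and 16.6 FPKM in WT and 11.1 and 13.0 FPKM in BtzR. Both BtzR groups lay below WT without overlap, by log2 differences of -0.30 ± 0.11 in L363 (adjusted p = 0.0936) and -0.30 ± 0.11 in ARH-77 (0.0876), neither of which passed. Without ARH-77 WT replicate 1 the ARH-77 difference was -0.44 (adjusted p = 0.0152) and passed. RPMI-8226 held 19.4 and 19.3 FPKM in WT and 21.1 and 21.3 FPKM in BtzR, a log2 difference of 0.13 ± 0.11 (0.349). The SHMT1 difference varied between the 4 lines (adjusted p = 0.0003).

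Markers of other cell types and of proliferation moved between the same AMO1 groups. Of 8 markers of other cell types, 3 were at 1 FPKM or more in AMO1 WT and 2 in AMO1 BtzR, and their summed level was 19.6 and 28.0 FPKM in WT and 6.31 and 7.05 FPKM in BtzR. Of the 5 that were tested, 3 fell: the T-cell receptor component CD3E (log2 difference -2.33), the keratin KRT8 (-2.03) and the lysozyme gene LYZ (-0.55). The T-cell marker CD3D was listed at 0 in all 4 AMO1 libraries, and HBB and EPCAM were at or near 0. The DNA replication gene MCM7 (log2 difference -1.01) and 4 more of 12 proliferation genes fell as well, against 1 that rose, the mitotic cyclin gene CCNB1 (0.63). Of all tested genes 25.6% rose and 25.6% fell in AMO1 BtzR. The part of either marker set in the AMO1 results was not tested.

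The mitochondrial SHMT2, the more abundant of the pair in FPKM, held 249 and 323 FPKM in AMO1 WT and 213 and 193 FPKM in AMO1 BtzR. In RPMI-8226 it held 183 and 204 FPKM in WT and 101 and 175 FPKM in BtzR. WT was higher in both lines without overlap, although the second RPMI-8226 BtzR library came close to WT. The log2 difference was -0.48 ± 0.18 in AMO1 (adjusted p = 0.0394) and -0.54 ± 0.18 in RPMI-8226 (0.0223). The AMO1 call was lost without AMO1 WT replicate 2, where the difference was -0.29, and without AMO1 BtzR replicate 2, at -0.41. It was lost too without AMO1 BtzR replicate 1, although the difference was then larger, at -0.55. The RPMI-8226 call was lost without BtzR replicate 1, at -0.14, and without WT replicate 2, at -0.46. Neither line passed in a fit of its own 4 libraries (adjusted p = 0.08 in AMO1 and 0.222 in RPMI-8226), nor did AMO1 with no filter on low values (0.0665) or after quantile normalization (0.0756). L363 held 156 and 170.1 FPKM in WT, 116 and 123 FPKM in BtzR and 133 and 139 FPKM in CfzR. ARH-77 held 157 and 162 FPKM in WT and 147 and 145 FPKM in BtzR. Resistant libraries were again below WT in both lines, but no difference passed, at -0.13 ± 0.18 in ARH-77 and, in L363, -0.44 ± 0.18 for BtzR and -0.26 ± 0.18 for CfzR. The mean of the 4 BtzR differences was -0.40 ± 0.09 (adjusted p = 0.00211), whose SE covers the spread of replicates and not that of lines.

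MTHFD2, the mitochondrial folate dehydrogenase and cyclohydrolase, held 203 and 249 FPKM in AMO1 WT and 199.9 and 168 FPKM in AMO1 BtzR. RPMI-8226 held 141 and 176 FPKM in WT and 118 and 290.0 FPKM in BtzR. The 2 RPMI-8226 BtzR libraries lay on either side of both WT libraries. ARH-77 held 146 and 198 FPKM in WT and 183 and 165 FPKM in BtzR, and L363 had the lowest levels of the 4 lines, at 103 and 108 FPKM in WT, 76.0 and 82.1 FPKM in BtzR and 86.1 and 101 FPKM in CfzR. No comparison of a resistant line with its own WT passed, with log2 differences from -0.41 ± 0.29 in L363 BtzR to 0.23 ± 0.29 in RPMI-8226 (95% interval -0.38 to 0.84). Without RPMI-8226 BtzR replicate 1 the RPMI-8226 difference was 0.88 (adjusted p = 0.00177) and passed, and without RPMI-8226 BtzR replicate 2 it was -0.41 and did not. The annotation names 7 pseudogenes of MTHFD2 and 4 of PSAT1 that the table does not list, so reads shared with them make these levels uncertain.

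MTHFD1L, the mitochondrial enzyme that releases formate, was low in L363 with and without treatment. Its level was 35.9 and 36.6 FPKM in AMO1 WT and 30.5 and 32.7 FPKM in AMO1 BtzR, 29.5 and 33.3 FPKM in RPMI-8226 WT and 30.2 and 41.3 FPKM in RPMI-8226 BtzR. ARH-77 held 31.5 and 34.0 FPKM in WT and 34.4 and 32.4 FPKM in BtzR. L363 held 16.2 and 17.6 FPKM in WT, 15.3 and 19.4 FPKM in BtzR and 18.4 and 16.3 FPKM in CfzR. All L363 libraries lay below every AMO1 WT, AMO1 BtzR, RPMI-8226 and ARH-77 library. The log2 differences within lines ran from -0.19 ± 0.13 in AMO1 to 0.17 ± 0.13 in RPMI-8226 and none passed. Without RPMI-8226 BtzR replicate 1 the RPMI-8226 difference was 0.39 (adjusted p = 0.0213) and passed. Over the 10 group means MTHFD1L followed MTHFD2 more closely than any other pair of members did each other (r = 0.963), and the lowest coefficient between members was that of PHGDH with MTHFD1L (-0.751). Groups of 1 line share their origin, so both are descriptions.

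MTHFD1, the cytosolic trifunctional enzyme that joins formate to folate, held 58.2 and 51.4 FPKM in AMO1 WT and 101 and 99.2 FPKM in AMO1 BtzR. ARH-77 held 78.9 and 64.6 FPKM in WT and 147 and 136 FPKM in BtzR. RPMI-8226 held 67.6 and 57.8 FPKM in WT and 99.1 and 76.4 FPKM in BtzR. Every BtzR library of these 3 lines was above both WT libraries of its line. The log2 difference was 0.86 ± 0.13 in AMO1 (95% interval 0.58 to 1.14, adjusted p = 7.29e-05), 0.97 ± 0.13 in ARH-77 (0.70 to 1.25, 1.24e-04) and 0.47 ± 0.13 in RPMI-8226 (0.19 to 0.75, 0.00657). Leaving out single libraries kept the AMO1 call at 0.77 to 0.95 and the ARH-77 call at 0.83 to 1.12. The RPMI-8226 call was lost without BtzR replicate 1, at 0.29 (adjusted p = 0.101), and without WT replicate 2, at 0.36 (adjusted p = 0.0787). In a fit of the 4 RPMI-8226 libraries alone the RPMI-8226 call was lost (adjusted p = 0.0969). The ARH-77 call was lost too in a fit of the 4 ARH-77 libraries alone (adjusted p = 0.135). That fit passed no gene of the 13089, so it cannot set MTHFD1 apart from other genes. The SE in ARH-77 draws on the spread of all 20 libraries. ARH-77 WT had the widest median replicate gap of the groups over all tested genes, at 0.21 log2 units.

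L363 did not share the MTHFD1 difference, with 73.3 and 75.5 FPKM in WT, 81.2 and 76.6 FPKM in BtzR and 73.0 and 60.9 FPKM in CfzR. The BtzR difference was 0.08 ± 0.13 (95% interval -0.19 to 0.36) and the CfzR difference -0.16 ± 0.13 (-0.43 to 0.12), and neither passed. The test of a difference between the 4 lines passed for MTHFD1 (adjusted p = 0.0022). Averaged over the 4 lines the BtzR difference was 0.60 ± 0.06 (adjusted p = 2.89e-06), whose SE covers the spread of replicates and not that of lines. In the order of group means ARH-77 BtzR (141 FPKM) and AMO1 BtzR (99.95 FPKM) each stood clear of the next group, and the lowest place was AMO1 WT (54.8 FPKM). The RefSeq promoter window of MTHFD1, 250 bases before to 50 bases after the start on the plus strand (GRCh38.p14, chr14:64388103-64388402), is shown because this gene carries the most widespread change, with its E-box (CACGTG, a site type of MYC and related factors) in capitals, beginning 15 bases before the start.
MTHFD1 promoter: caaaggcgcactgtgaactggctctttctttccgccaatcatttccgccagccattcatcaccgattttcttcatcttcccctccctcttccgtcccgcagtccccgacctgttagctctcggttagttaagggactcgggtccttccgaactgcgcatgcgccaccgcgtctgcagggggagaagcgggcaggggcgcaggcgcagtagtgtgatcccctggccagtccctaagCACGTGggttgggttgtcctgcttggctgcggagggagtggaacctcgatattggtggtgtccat

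SLC1A4, a carrier of serine, alanine and other neutral amino acids, was highest in RPMI-8226 WT, at 88.0 and 82.7 FPKM, against 37.3 and 47.3 FPKM in RPMI-8226 BtzR. The WT libraries were far above the BtzR libraries, and the log2 difference of -1.004 ± 0.14 (95% interval -1.31 to -0.70, adjusted p = 3.42e-05) held without each of the 4 libraries, at -1.17 to -0.84. AMO1 held 49.1 and 48.4 FPKM in WT and 46.2 and 43.1 FPKM in BtzR, and ARH-77 held 40.6 and 59.6 FPKM in WT and 42.6 and 44.2 FPKM in BtzR. L363 held 62.0 and 59.5 FPKM in WT, 67.8 and 59.6 FPKM in BtzR and 55.7 and 49.8 FPKM in CfzR. None of these lines passed, with log2 differences of -0.12 ± 0.14 in AMO1, -0.18 ± 0.14 in ARH-77 and, in L363, 0.06 ± 0.14 for BtzR and -0.20 ± 0.14 for CfzR. Without ARH-77 WT replicate 1 the ARH-77 difference was -0.45 (adjusted p = 0.0192) and passed. The difference varied between the 4 lines (adjusted p = 0.0014).

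SLC1A5, the glutamine carrier ASCT2, which also takes serine, held 199 and 249 FPKM in AMO1 WT and 162 and 158 FPKM in AMO1 BtzR. The groups did not overlap, but the log2 difference of -0.48 ± 0.19 missed the threshold (adjusted p = 0.0523). It passed without AMO1 WT replicate 1, at -0.63 (adjusted p = 0.0436), with a filter at 5 FPKM (adjusted p = 0.0468) and after rescaling the libraries to the same sum (0.0346). RPMI-8226 held 130.0 and 140.0 FPKM in WT and 116 and 202 FPKM in BtzR, and ARH-77 held 79.8 and 98.3 FPKM in WT and 97.4 and 87.3 FPKM in BtzR. L363 held 152 and 159 FPKM in WT, 115 and 122 FPKM in BtzR and 143 and 134 FPKM in CfzR. The RPMI-8226 BtzR libraries fell on either side of WT and the ARH-77 groups overlapped. Log2 differences were 0.18 ± 0.19 in RPMI-8226, 0.06 ± 0.19 in ARH-77 and, in L363, -0.39 ± 0.19 for BtzR and -0.17 ± 0.19 for CfzR, and none passed. Without RPMI-8226 BtzR replicate 1 the RPMI-8226 difference was 0.58 (adjusted p = 0.00646) and passed.

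The core of the amino acid response element (TGATGNAA, where N is any base), bound by ATF4 with a C/EBP partner, and the E-box CACGTG were sought on both strands in the RefSeq promoter windows of the members, which were in the table for 8 of 10 genes (14 windows). PSPH and SHMT2 had no entry. The response element core was in 5 windows of 3 members, SLC1A4, SLC1A5 and MTHFD1L, and in 3.62% of all 35116 windows. The E-box was in 5 windows of 3 members, MTHFD1, SLC1A5 and MTHFD1L, and in 7.26% of all windows. MTHFD1L gives 3 overlapping windows that hold both motifs, so its matches are 1 stretch for each motif. It has a further, separate window with neither. SLC1A4 has a second window with neither motif, and SLC1A5 holds its matches in 2 separate windows and has a further one with none. For PHGDH, PSAT1, SHMT1 and MTHFD2 neither set of letters was in the window. SLC1A4 is shown as the member with the largest RPMI-8226 change that held its call (plus strand, GRCh38.p14, chr2:64989149-64989448, the core in capitals as read on the opposite strand, beginning 7 bases before the start), and SHMT1 for its fall in AMO1 (minus strand, chr17:18363501-18363800, no match, all in lower case).
SLC1A4 promoter: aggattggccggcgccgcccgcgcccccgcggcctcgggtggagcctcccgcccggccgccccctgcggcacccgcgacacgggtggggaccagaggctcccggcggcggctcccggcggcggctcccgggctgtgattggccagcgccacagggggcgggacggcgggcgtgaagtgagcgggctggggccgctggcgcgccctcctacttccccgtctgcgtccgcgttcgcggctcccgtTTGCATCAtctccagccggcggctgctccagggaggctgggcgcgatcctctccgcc
SHMT1 promoter: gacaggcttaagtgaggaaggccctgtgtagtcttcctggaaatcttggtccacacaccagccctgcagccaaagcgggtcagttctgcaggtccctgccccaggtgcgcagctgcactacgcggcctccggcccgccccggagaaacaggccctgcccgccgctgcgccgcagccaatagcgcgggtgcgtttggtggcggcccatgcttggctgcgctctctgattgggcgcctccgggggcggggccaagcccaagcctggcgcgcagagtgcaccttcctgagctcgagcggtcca

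**Figure D2:**
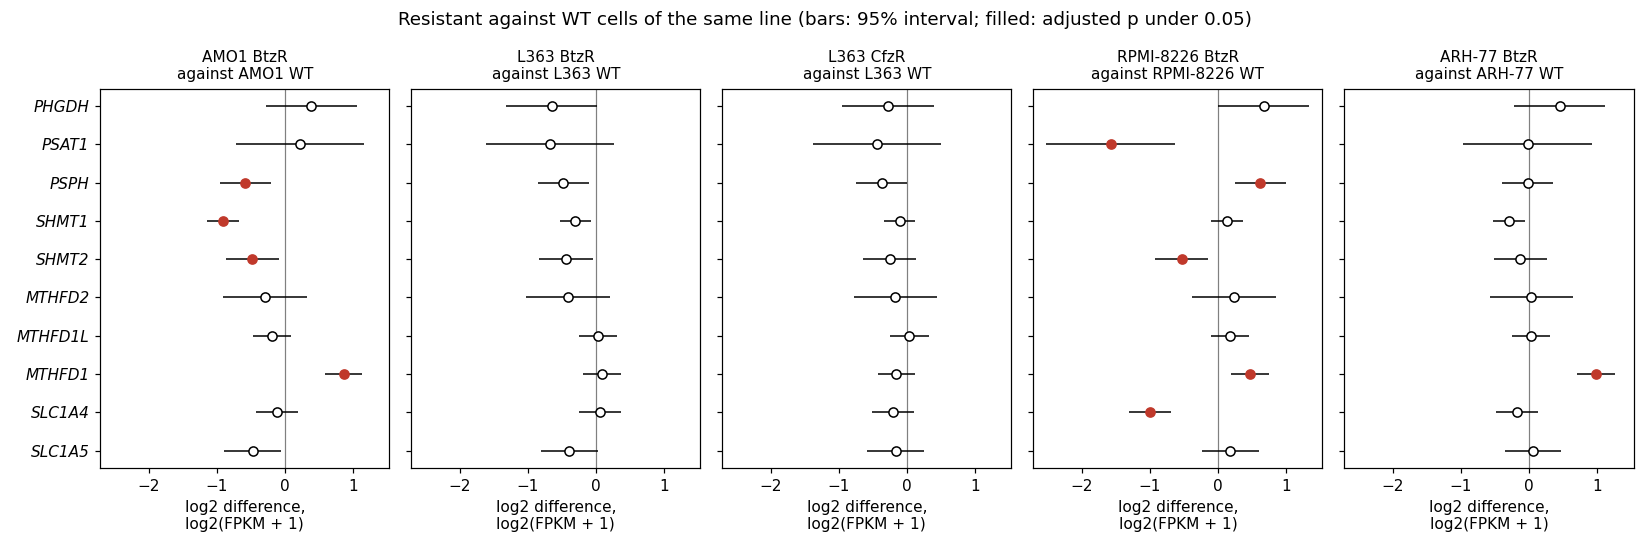
Log2 difference of each gene between resistant and WT cells of the same line, on the log2(FPKM + 1) scale, with 95% intervals of the limma fit (filled red points passed at adjusted p under 0.05, open points did not). MTHFD1 is filled on the right in AMO1, RPMI-8226 and ARH-77, and neither L363 panel has a filled point.

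Counted by line, 1 member rose in AMO1 BtzR (MTHFD1) and 3 fell (PSPH, SHMT1, SHMT2), where 25.6% of all tested genes rose and 25.6% fell. The count that fell was 1 without AMO1 WT replicate 2 or without AMO1 BtzR replicate 2, and 4 without AMO1 WT replicate 1. In RPMI-8226 BtzR 2 rose (PSPH, MTHFD1) and 3 fell (PSAT1, SHMT2, SLC1A4), against 30.2% and 24.2% of all tested genes. The RPMI-8226 counts depended on single libraries: 5 rose without RPMI-8226 BtzR replicate 1, 1 rose without RPMI-8226 BtzR replicate 2 or WT replicate 1, and 1 fell without BtzR replicate 1 or WT replicate 2. ARH-77 BtzR had 1 rise (MTHFD1) and 0 falls, against 5.98% and 7.6%, with 2 members at an unadjusted p under 0.05 (MTHFD1, SHMT1), and 2 fell without ARH-77 WT replicate 1. Set against 10 members, the counts in AMO1 and RPMI-8226 are near or below the shares of all genes, and the ARH-77 count is a single gene. For the cut at an unadjusted p under 0.05 no share of all tested genes is given.

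In L363 the limma test passed 0 members in either direction for BtzR, where 5.66% of tested genes rose and 5.52% fell, and 0 for CfzR, where 4.88% rose and 3.58% fell. At an unadjusted p under 0.05 there were 3 members for BtzR (PSPH, SHMT1, SHMT2), and for CfzR there were 0. The shares above are for the adjusted p, and none is given for this looser cut, so these counts have no comparison. The L363 BtzR differences were negative for 7 of 10 members with a median of -0.40, and the CfzR differences for 9 of 10 with a median of -0.19, where the medians over all tested genes were 0 and -0.0040. Both comparisons use the same 2 WT libraries. In a fit of only the compared libraries 5 members passed as lower in L363 BtzR (PHGDH, SHMT1, SHMT2, MTHFD2, SLC1A5). That fit passed 1705 of the 13089 tested genes in either direction.

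L363 is also the line in which bortezomib, a boronic acid, and carfilzomib, an epoxyketone, can be set side by side at the same 90 nM. The limma test passed 0 of 10 members between L363 CfzR and L363 BtzR, against 3.27% and 2.87% of tested genes. At an unadjusted p under 0.05, a cut for which no share is given, there were 0 members. Differences of CfzR from BtzR ran from -0.27 ± 0.14 for SLC1A4 (95% interval -0.58 to 0.04) to 0.37 ± 0.31 for PHGDH (-0.30 to 1.04). The 95% intervals of all 10 members included 0, and the widest, that of PSAT1, ran from -0.71 to 1.17. With 2 libraries a group, the intervals do not exclude differences as large as their bounds.

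Over the mean of the 4 BtzR differences MTHFD1 rose and 3 members fell (SHMT1, SHMT2, SLC1A4), against 25.5% and 26.8% of tested genes. SHMT1 stood at -0.35 ± 0.05 and SLC1A4 at -0.31 ± 0.07 (adjusted p = 9.13e-05 and 0.00221), and PSAT1 at -0.51 ± 0.22 missed the threshold (0.0635). Each SE covers the spread of replicates and not that of lines. By line, the SLC1A4 difference ran from -1.004 in RPMI-8226 to 0.06 in L363. Without RPMI-8226 BtzR replicate 2 the count that fell was 6, with PSAT1, MTHFD2 and SLC1A5 added, and PSAT1 also passed without ARH-77 WT replicate 1, at -0.63 (adjusted p = 0.0284). The difference itself varied between lines for 4 of 10 members (SHMT1, SLC1A4, PSPH, MTHFD1), where 71.1% of tested genes did, and for 8 without RPMI-8226 BtzR replicate 1. WT levels varied between the 4 lines for all 10 members, where 92.6% of tested genes did, with PSAT1 closest to the threshold (adjusted p = 0.0498). That count was 6 without AMO1 WT replicate 2 or without L363 WT replicate 2, and 9 without the libraries labelled AMO1 CfzR.

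The libraries labelled AMO1 CfzR held member levels nearer to L363 than to AMO1 for several genes. MTHFD1L was at 16.3 and 15.8 FPKM, MTHFD2 at 90.1 and 98.2 FPKM, PSAT1 at 48.0 and 63.3 FPKM and PHGDH at 73.3 and 103 FPKM. SHMT2 was at 139 and 159 FPKM, SLC1A5 at 129 and 159 FPKM and PSPH at 24.4 and 29.7 FPKM. MTHFD1, at 66.2 and 61.3 FPKM, and SLC1A4, at 51.8 and 46.9 FPKM, lay between or near the WT levels of both lines. Set against AMO1 WT as labelled, 1 member was higher (PHGDH, 1.22 ± 0.31) and 6 were lower (PSPH, SHMT1, SHMT2, MTHFD2, MTHFD1L and SLC1A5), where 26.8% of tested genes were higher and 30.9% lower. MTHFD2 was lower by -1.25 ± 0.29 and MTHFD1L by -1.13 ± 0.13 as signed log2 differences. Without AMO1 WT replicate 2 the calls of PSPH, at -0.24 (adjusted p = 0.352), and of SLC1A5, at -0.48 (adjusted p = 0.11), were lost. Without the first labelled AMO1 CfzR library they were lost as well, PSPH at -0.30 (adjusted p = 0.281) and SLC1A5 at -0.48 (adjusted p = 0.107). PSPH also lost its call with no filter on low values (adjusted p = 0.0748), after quantile normalization (0.0693) and in a fit of the 4 compared libraries (0.111). PSAT1, at -1.06 ± 0.44, missed the threshold (adjusted p = 0.051) and passed with a filter at 5 FPKM (0.0454), after rescaling to the same sum (0.0422) and in the fit of 4 libraries (0.0292). This comparison shares its WT libraries with that of AMO1 BtzR. In it a difference of line and a difference of drug cannot be told apart. Set against L363 WT, 0 members were higher and 1 was lower, where 3.52% and 3.4% of tested genes were. That member was SHMT1, at 16.5 and 19.1 FPKM and -0.42 ± 0.11 (adjusted p = 0.0297), and its call was lost without the first labelled library, at -0.32 (adjusted p = 0.32), and without L363 WT replicate 1, at -0.41 (adjusted p = 0.156), or 2, at -0.42 (adjusted p = 0.151). Leaving both labelled libraries out changed no call of a member in the comparisons of resistant with WT cells of the other groups.

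**Figure D3:**
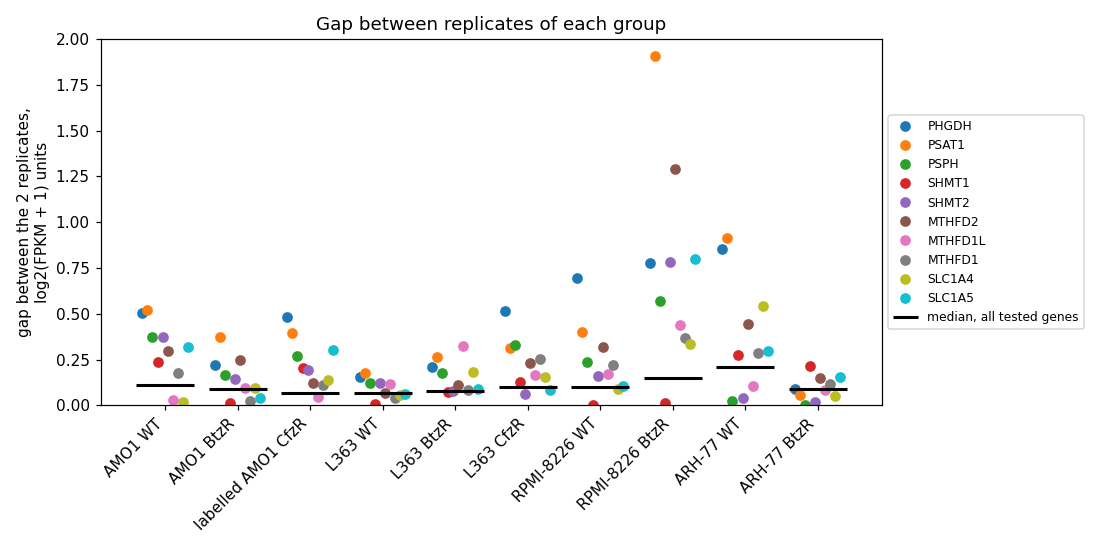
Absolute gap between the 2 replicates of each group for the 10 genes, in log2(FPKM + 1) units, with a black bar at the median over all 13089 tested genes. In RPMI-8226 BtzR 9 of the 10 members lie above the bar, PSAT1 highest at 1.91.

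The 2 replicates differed more for these genes than for the median gene in 9 of the 10 groups, all but ARH-77 BtzR. In RPMI-8226 BtzR the median gap of the members was 0.67 log2 units, against 0.15 over all tested genes, and 9 of 10 members were higher in replicate 2, as were 46.0% of all tested genes. MTHFD1 was the exception, and over the 10 groups it was higher in replicate 2 in only 1, whereas PHGDH was in 9. In AMO1 WT the medians were 0.31 for the members and 0.11 for all tested genes, and in ARH-77 WT 0.29 and 0.21. The ratio of the highest to the lowest group mean was 4.84 for PSAT1, 3.51 for PHGDH and 1.75 for PSPH, the members with the widest and the narrowest range, and 8 of 9 neighbouring groups in the order of each overlapped. SHMT1 had the fewest overlapping neighbours, 5 of 9.

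The amino acid response list spread the same way in those groups. In RPMI-8226 BtzR 20 of its 21 genes were higher in replicate 2, by a median of 1.17 log2 units. ATF4 itself stood at 209 and 626 FPKM, the asparagine synthetase gene ASNS at 67.1 and 234 FPKM and the stress-induced CHAC1 at 0.48 and 21.8 FPKM, 3 genes chosen after their values were seen. Of the 21 genes, 20 were higher in replicate 2 of AMO1 WT, where 52.2% of all tested genes were. In ARH-77 WT 17 were, where 57.6% of all tested genes were. The count was 18 in L363 WT, in L363 CfzR and in the libraries labelled AMO1 CfzR, and 17 in L363 BtzR and RPMI-8226 WT. It was only 4 in AMO1 BtzR and in ARH-77 BtzR. In these further groups 44.0% to 55.1% of all tested genes were higher in replicate 2. Between groups, 0 of the 21 rose and 1 fell in AMO1 BtzR (MYC, -0.43), beside 25.6% and 25.6% of all tested genes. For RPMI-8226 BtzR 5 rose and 2 fell, beside shares of 30.2% and 24.2%. Listed genes that passed there included WARS1 (0.81), TRIB3 (0.64) and the amino acid sensing kinase gene EIF2AK4 (-1.44). The count was 0 for L363 and ARH-77, with shares from 3.58% to 7.6% in either direction. The amino acid response list was not tested against these shares. The part of this response in the members' differences was not tested.

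**Figure D4:**
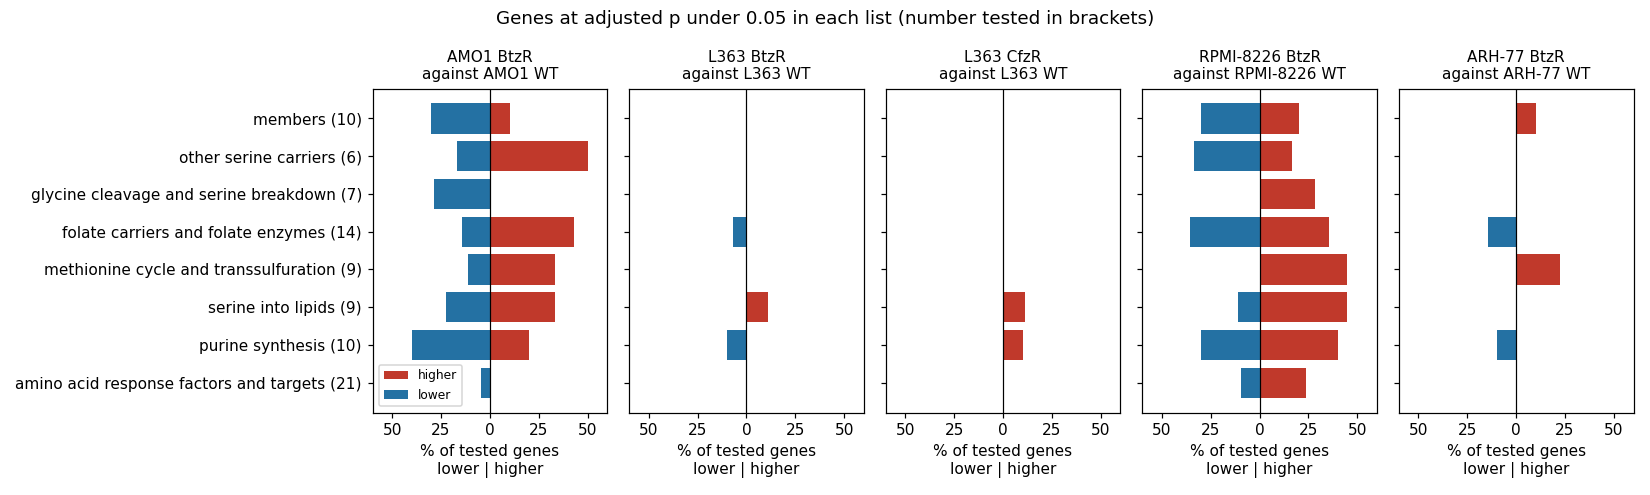
Share of tested genes that passed as higher (red, right) or lower (blue, left) in the members and in 7 other lists of the pathway, for each resistant line against its own WT, with the number of tested genes in brackets. The L363 panels hold few bars. Bars on the higher side alone are those of the methionine cycle and glycine cleavage genes in RPMI-8226. In ARH-77 they are those of the methionine cycle genes and the members.

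Neighbouring steps were read from lists of the same pathway. Their counts, here and in the paragraphs below, stand beside the shares of all tested genes that passed. In AMO1 BtzR 25.6% rose and 25.6% fell, and in RPMI-8226 BtzR 30.2% and 24.2%. In ARH-77 BtzR the shares were 5.98% and 7.6%, in L363 BtzR 5.66% and 5.52%, and in L363 CfzR 4.88% and 3.58%. No list was tested against these shares. Among folate carriers and enzymes 14 of 17 genes were tested, and 6 rose and 2 fell in AMO1 BtzR, 5 and 5 in RPMI-8226 BtzR, 0 and 1 in L363 BtzR, 0 and 2 in ARH-77 BtzR, and 0 passed in L363 CfzR. ALDH1L2, the mitochondrial enzyme that oxidises formyl-folate to carbon dioxide, fell in both AMO1 (-1.52) and RPMI-8226 (-2.22), where it went from 4.14 and 5.87 FPKM to 0.24 and 0.32 FPKM. Its cytosolic relative ALDH1L1 was at 0.04 and 0 FPKM in AMO1 WT and 9.83 and 8.32 FPKM in AMO1 BtzR, but at 3.48 and 5.03 FPKM in RPMI-8226 WT and listed at 0 in both RPMI-8226 BtzR libraries. The 2 lines thus moved ALDH1L1 in opposite directions and ALDH1L2 in the same one. RPMI-8226 BtzR was also lower for the folate carrier SLC19A1 (-0.82). FPGS, which adds the glutamate tail that keeps folate in cells, was higher in AMO1 BtzR (0.68) and lower in ARH-77 BtzR (-0.49), where the mitochondrial folate carrier SLC25A32 was lower too (-0.67).

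Of the methionine cycle and transsulfuration genes (9 of 10 tested), 3 passed as higher and 1 as lower in AMO1 BtzR. In RPMI-8226 BtzR 4 passed as higher and 0 as lower, and in ARH-77 BtzR 2 and 0. Over all tested genes these shares were 25.6% and 25.6% in AMO1, 30.2% and 24.2% in RPMI-8226, and 5.98% and 7.6% in ARH-77. MAT2A, the methionine adenosyltransferase, rose in AMO1 (0.40) and RPMI-8226 (0.64), from 148 and 145 FPKM to 254 and 205 FPKM in the latter. Its regulatory subunit MAT2B rose in RPMI-8226 (0.51) and ARH-77 (0.68). AHCY, which clears S-adenosylhomocysteine, rose in AMO1 (0.39) and RPMI-8226 (0.45). In L363 0 of the 9 passed for either drug.

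For glycine cleavage and serine breakdown (7 of 8 tested), 2 genes rose and 0 fell in RPMI-8226 BtzR. In AMO1 BtzR 0 rose and 2 fell, and 0 passed in L363 or ARH-77 cells against their own WT. The glycine decarboxylase GLDC went from 0.18 and 0.13 FPKM to 5.34 and 7.89 FPKM in RPMI-8226 (2.70) and its carrier protein GCSH from 26.7 and 26.2 FPKM to 49.7 and 51.7 FPKM (0.91). In AMO1 the falls were GLYCTK (-0.75) and DLD (-0.49), a dehydrogenase shared with other complexes. Other serine carriers (6 of 9 tested) passed as higher for 3 and lower for 1 in AMO1 BtzR and as higher for 1 and lower for 2 in RPMI-8226 BtzR. SLC38A1, a neutral amino acid importer, fell in AMO1 (-0.88), from 115 and 116 FPKM to 63.6 and 60.9 FPKM. SFXN1, the mitochondrial serine importer, rose in AMO1 (0.31) and RPMI-8226 (0.81).

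Purine synthesis, a large user of one-carbon units, had 2 of 10 genes higher and 4 lower in AMO1 BtzR, 4 and 3 in RPMI-8226 BtzR, 0 and 1 in both L363 BtzR and ARH-77 BtzR, and 1 and 0 in L363 CfzR. GART, which uses a one-carbon unit, fell in AMO1 (-0.62) and RPMI-8226 (-0.44), whereas ATIC, which uses the next one, rose in RPMI-8226 (0.73). ATIC was also higher in AMO1 BtzR, at 129.7 and 137.5 FPKM, than in AMO1 WT, at 92.3 and 94.4 FPKM. PRPS2, which supplies the ribose for purines, was lower in L363 BtzR (-0.35) and higher in L363 CfzR (0.47) against the same WT libraries. Among genes that put serine into lipids (9 tested), 3 rose and 2 fell in AMO1 BtzR, 4 rose and 1 fell in RPMI-8226 BtzR, 1 rose in each L363 comparison and 0 passed in ARH-77. The rise in L363 was SERINC5 in both cases (0.62 and 0.64), and SERINC5 also rose in RPMI-8226 (0.54). Proliferation genes passed as higher for 4 of 12 in RPMI-8226 BtzR and as lower for 2 in each of L363 BtzR and ARH-77 BtzR, with 0 in L363 CfzR. Of 6 plasma cell markers 1 rose and 2 fell in AMO1 BtzR, 3 rose and 2 fell in RPMI-8226 BtzR, and 1 fell in each of L363 BtzR and ARH-77 BtzR. Of 6 B-cell markers 3 rose in ARH-77 BtzR, 3 fell in RPMI-8226 BtzR and 1 fell in L363 BtzR, and their summed level outside ARH-77 was 0.09 to 2.94 FPKM. The epithelial marker EPCAM was at 56.2 and 56.5 FPKM in RPMI-8226 WT and 68.1 and 58.1 FPKM in RPMI-8226 BtzR and at 0.12 FPKM or less in all other libraries, a gene named after its values were seen. The part of these markers and of proliferation in the members' differences was not tested.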

How the data were processed

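RNA-seq of 20 libraries (10 groups, 2 biological replicates each, grouped by GEO's labels) was analysed from 1 deposited FPKM table of 18305 genes. The authors' processing notes name HISAT2 (2.0.4), Bowtie2 (2.2.5) and RSEM (1.2.12), and the genome build is not given in the sources used here. FPKM values were not whole multiples of a single read, so depth is unknown and no counting interval was given. Members and lists were chosen with earlier results of these data known.

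Genes with a group mean of 1 FPKM or more in at least 1 group (13089) were tested. Values were transformed to log2(FPKM + 1), which understates changes of low genes, and fitted as 10 group means with limma (3.58.1, R 4.3.3; empirical Bayes with a mean-variance trend, 10 residual degrees of freedom). P-values were adjusted by Benjamini-Hochberg over all tested genes and measure the spread between the study's biological replicates. An exact permutation test of 2 against 2 libraries cannot go below p = 0.333 and was not used. The fit was tested on simulated data. Named genes were all members and, from each other list and comparison, at most 4 passing genes with the largest absolute difference among those whose groups did not overlap. For PHGDH and PSAT1 the 3 genes with the highest correlation over group means were named. Pseudogenes are named in the annotation for MTHFD2 (7), PSAT1 (4), PSPH (1), SHMT1 (1) and MTHFD1 (1), none of which is in the table, so reads shared with them make these levels uncertain. Some genes of the lists are counted but not reported here by name. Promoter sequences come from RefSeq (GRCh38.p14). Alternatives were other pseudocounts, filters, scalings, a replicate block, fits of only the compared libraries, a fold threshold and leaving out libraries.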

Additional observations from a re-analysis of the deposited data

Results flagged for a closer look

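The difference between BtzR and WT cells was found to vary between the 4 lines for 4 of the 10 genes, by the interaction term of the limma fit: SHMT1 (adjusted p = 0.0003), SLC1A4 (0.0014), PSPH (0.0021) and MTHFD1 (0.0022). By comparison, 71.1% of all tested genes varied in this way. All 4 kept this call without each single WT or BtzR library in turn, under the other pseudocounts, filters and scalings, and in a fit without the libraries labelled AMO1 CfzR. Within these genes the line that stood apart was not the same: SHMT1 was lowest against WT in AMO1 and SLC1A4 in RPMI-8226, PSPH differed in sign between AMO1 and RPMI-8226, and MTHFD1 was near its WT level in L363.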

How the results depend on the processing

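Under the alternatives, the fold threshold not counted, 1360 member differences were recomputed. Of these, 1261 kept their direction and their side of the threshold, passed or not, 29 came to pass and 33 lost their call. Another 37 that had not passed changed sign. With an added log2 difference of at least 1, counts were 0 higher and 0 lower in AMO1 BtzR. They were 0 higher and 2 lower in RPMI-8226 BtzR (PSAT1, SLC1A4), and 0 higher in ARH-77 BtzR. For the libraries labelled AMO1 CfzR they were 1 higher (PHGDH) and 2 lower against AMO1 WT, and 0 lower against L363 WT. The mean of the 4 lines had 0 higher and 0 lower. Of the 13089 tested genes this rule passed, in either direction, 1201 in AMO1 BtzR, 1809 in RPMI-8226 BtzR and 210 in ARH-77 BtzR. It passed 2237 and 217 for the labelled libraries against AMO1 WT and L363 WT, and 222 for the mean. In fits of only the compared libraries 1 member was lower in AMO1 BtzR, 5 in L363 BtzR, 1 in RPMI-8226 BtzR and 0 for the labelled libraries against L363 WT, and 0 were higher in RPMI-8226 or ARH-77 BtzR, where the ARH-77 fit passed no gene at all; such fits have 2 residual degrees of freedom.

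Same-numbered replicates of compared groups correlated in their deviations at r = -0.0055 in AMO1 WT and BtzR and at 0.120 to 0.245 in the other pairs of groups. With 2 numbers a group and no label that gives a number a meaning, what same-numbered replicates share is not known, and the main fit holds no term for it. The amino acid response list was mostly higher in replicate 2 in every group but AMO1 BtzR and ARH-77 BtzR. With the replicate number as a block 2 members were lower in L363 BtzR (PSPH, SHMT1) and 1 in ARH-77 BtzR (SHMT1). Calls were also gained by SLC1A5 in AMO1 BtzR (adjusted p = 0.0281) and PHGDH in RPMI-8226 BtzR (0.0124). PSAT1 gained a call in the labelled libraries against AMO1 WT and in the mean, and no call was lost. The block also passed more of the 13089 tested genes in either direction. It passed 1692 against 1464 in L363 BtzR and 2105 against 1778 in ARH-77 BtzR. In AMO1 BtzR it passed 6978 against 6702, in RPMI-8226 BtzR 7398 against 7112, for the labelled libraries against AMO1 WT 7860 against 7553, and for the mean 7193 against 6844. Leaving out single libraries gave 1 to 4 lower in AMO1 BtzR, 1 to 5 higher and 1 to 3 lower in RPMI-8226 BtzR, 0 to 2 lower in ARH-77 BtzR, 0 to 1 lower for the labelled libraries against L363 WT, 3 to 6 lower for the mean, 4 to 8 varying between lines and 6 to 9 varying in WT level; the lone library left in a group is then assumed to vary like the others. The cause was not tested. With 2 libraries a group and no read counts, small differences of these genes were not detectable.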
